A study of Mus musculus with 11 samples.

Results

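The SOCS family of cytokine signalling inhibitors comprises 8 genes, Socs1, Socs2, Socs3, Socs4, Socs5, Socs6, Socs7 and Cish, which were taken by symbol from the 52143 genes of the expression table, and all 8 had a row. The cells were RAW cells, a mouse macrophage-like line, and every library was made from total RNA. They carried either a short hairpin against GIV (shGIV; GIV, also called Girdin, is the product of Ccdc88a, a cytoskeletal protein that modulates inhibitory G proteins) or a control hairpin (shC), and were sampled after 5 h with bacterial lipopolysaccharide (LPS) at 100 ng/ml or without LPS (0 h). The libraries analysed were 3 of shGIV with LPS, 1 of shC with LPS, 3 of shGIV without LPS and 3 of shC without LPS. The last of these groups includes a library, replicate 2, that is shown apart, and a further labelled shC sample with LPS (replicate 3) is not analysed here. The labels name no clone, hairpin sequence or separate culture, so p-values measure the spread between these libraries, which may be technical.

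SOCS proteins are made when cytokines switch on JAK kinases and STAT transcription factors, and they close a feedback loop: an SH2 domain docks on a phosphorylated receptor or kinase, and the SOCS box recruits elongins and cullin 5 to mark the bound protein for degradation. Socs1 and Socs3 also carry a short region that blocks the kinase itself. In macrophages, Socs1 restrains interferon signalling and Socs3 restrains signalling through the interleukin 6 receptor chain gp130, and both are known as genes switched on by LPS. Cish and Socs2 are classical STAT5 targets that act on growth hormone and related cytokine receptors. Socs4 and Socs5 are linked to the epidermal growth factor receptor and Socs6 to the KIT receptor, and Socs7 binds the adaptor NCK.

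In the mouse build GRCm38 Socs3 and Socs7 share chromosome 11, and the other members lie on other chromosomes. By the GENCODE M21 annotation the 4 short members, whose coding sequences are 594 nt (Socs2), 636 nt (Socs1), 675 nt (Socs3) and 771 nt (Cish), differ from the 4 long ones, with 1308 nt (Socs4), 1599 nt (Socs6), 1608 nt (Socs5) and 1737 nt (Socs7). The longest coding transcript had 2 exons in Socs1, Socs3 and Socs4, 3 exons in Socs2, Cish, Socs5 and Socs6, and 10 exons in Socs7. The genes span chr16:10782240-10785536 (Socs1, minus strand), chr11:117966079-117970047 (Socs3, minus strand), chr9:107296026-107302784 (Cish, plus strand), chr10:95385362-95417180 (Socs2, minus strand), chr14:47276931-47296102 (Socs4, plus strand), chr17:87107679-87137839 (Socs5, plus strand) and chr11:97362551-97398542 (Socs7, plus strand).

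The promoters of the 3 genes that were high in cells given LPS are shown with that of Socs4, which was not, because the 4 differ in the short elements they hold. Each sequence is the 250 bases before the RefSeq start in the build GRCm38.p6, 5′ to 3′ on the gene's own strand, at chr16:10785537-10785786 (Socs1), chr11:117969367-117969616 (Socs3), chr9:107296409-107296658 (Cish) and chr14:47276670-47276919 (Socs4). Capitals mark a match to the interferon response core GAAANNGAAA or to the STAT element TTCNNNGAA; the RefSeq table held a window for these 4 of the 8 genes.
Socs1: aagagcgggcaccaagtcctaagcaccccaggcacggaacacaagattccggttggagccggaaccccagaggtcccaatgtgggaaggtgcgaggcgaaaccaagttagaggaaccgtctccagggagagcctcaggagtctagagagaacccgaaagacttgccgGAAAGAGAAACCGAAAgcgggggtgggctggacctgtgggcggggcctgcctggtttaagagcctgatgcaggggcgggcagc
Socs3: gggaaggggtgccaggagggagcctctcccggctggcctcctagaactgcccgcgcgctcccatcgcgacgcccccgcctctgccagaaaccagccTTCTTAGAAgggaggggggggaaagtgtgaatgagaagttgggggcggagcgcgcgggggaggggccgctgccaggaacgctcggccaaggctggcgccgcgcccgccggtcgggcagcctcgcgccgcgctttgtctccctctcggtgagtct
Cish: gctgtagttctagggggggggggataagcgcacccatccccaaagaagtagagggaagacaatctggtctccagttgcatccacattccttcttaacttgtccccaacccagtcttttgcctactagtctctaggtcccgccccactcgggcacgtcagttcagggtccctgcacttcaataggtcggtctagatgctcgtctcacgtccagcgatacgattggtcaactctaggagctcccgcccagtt
Socs4: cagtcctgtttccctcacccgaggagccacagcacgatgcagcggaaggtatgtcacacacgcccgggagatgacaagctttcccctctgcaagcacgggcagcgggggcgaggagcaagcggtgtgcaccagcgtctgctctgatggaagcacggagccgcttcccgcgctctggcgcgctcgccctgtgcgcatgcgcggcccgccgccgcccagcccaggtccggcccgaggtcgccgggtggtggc
The Cish elements lie just after its RefSeq start, at chr9:107296659-107296678, and both are in capitals in this stretch.
Cish, bases 1 to 20 after the start: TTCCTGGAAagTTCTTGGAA

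The motifs were searched on both strands from 250 bases before to 50 bases after each start, and the same was done for 32851 RefSeq windows of that length. Socs1 held 2 overlapping interferon response cores, from position -83 to -74 and from -77 to -68, where 3.44% of all windows held at least 1 and 0.225% held 2 or more. Socs3 held 1 STAT element, from -154 to -146, which 8.3% of all windows held. Its RefSeq start lies 180 bases upstream of the start of the coding GENCODE transcript. Cish held 2 STAT elements, from 1 to 9 and from 12 to 20, where 0.457% of all windows held 2 or more. The Cish window and both elements lie downstream of the start of its longest coding GENCODE transcript, at chr9:107296026, and so inside the annotated gene. Other coding transcripts of Cish start downstream of the window, at chr9:107296710 and chr9:107296912. None of the 4 windows held the AP-1 element TGANTCA, found in 7.81% of all windows, or the kappaB element, found in 8.46%, and the Socs4 window held none of the 4 motifs. These are matches of letters in a window, and none was measured as a bound site here.

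Levels are given as TPM, an abundance per transcript length that sums to 1000000 in every library and can be compared between genes within a library. The number of reads behind each value is unknown. Replicate 2 of shC without LPS stands apart from the other libraries. Protein-coding genes took 7.81% of its TPM and 74.1% to 81.7% of that of the others, and its rank correlations (Spearman) to libraries of either line without LPS were 0.734 to 0.741. Its family sum was 7.22 TPM, against 31.8 to 39.9 TPM in the other libraries without LPS, while scaled to coding genes alone (so that their TPM sum to 1000000) it was 92.5, against 40.2 to 50.3. Tests therefore use the other 9 libraries. Directions and calls of members, and calls of other named genes, that change with all 10 are given. Ccdc88a, the gene targeted by the hairpin, measured 3.08, 2.62 and 3.39 TPM in shGIV cells with LPS, 5.77 TPM in the shC library with LPS, 6.93, 5.31 and 5.58 TPM in shGIV cells without LPS and 10.0 and 7.69 TPM in shC cells without LPS. Among these 9 libraries it was lower in every shGIV library than in its shC counterparts, whereas the shC library that stands apart had 1.18 TPM, below every shGIV library; the differences of -0.75 ± 0.19 (SE) log2 units with LPS and -0.50 ± 0.15 (SE) log2 units without LPS had limma adjusted p = 0.0681 and 0.232. Of the 9 macrophage markers, 8 were at or above 37.2 TPM in all 9 libraries and Mrc1 was at or below 2.53 TPM, while each of the 19 markers of T cells, B cells, fibroblasts, epithelium and endothelium was at or below 1.05 TPM, with Krt18 at 0. The summed macrophage markers moved with LPS, at 12031 to 12613 TPM in shGIV cells with LPS, 14526 TPM in the shC library with LPS, 18141 to 18694 TPM in shGIV cells without LPS and 19299 to 19776 TPM in shC cells without LPS; their part in the results was not tested.

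With LPS, Socs3, Socs1 and Cish stood far above their levels without LPS in both lines, Socs4 stood lower, and Socs5, Socs6 and Socs7 did not pass the test. Tests were limma fits to log2(TPM + 1) over the 13711 genes with a value of at least 1 in at least 2 libraries, adjusted over all of them by the Benjamini-Hochberg method and called at an adjusted p under 0.05. Socs2 did not reach that minimum. Socs1 and Cish reached it through the LPS libraries alone, so their LPS calls and the number of members called are descriptions. That number was 3 higher and 1 lower of the 7 tested in each line. The median change of the 7 was 0.08 log2 units in shGIV cells and 0.06 log2 units in shC cells. In shGIV cells 75.5% of all genes tested were called, 15.8% higher and 59.7% lower, and in shC cells 58.9%, with 14.8% higher and 44.1% lower. The median change of all genes tested was -0.54 log2 units in shGIV cells and -0.40 log2 units in shC cells, and changes are also given against it.

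**Figure D1:**
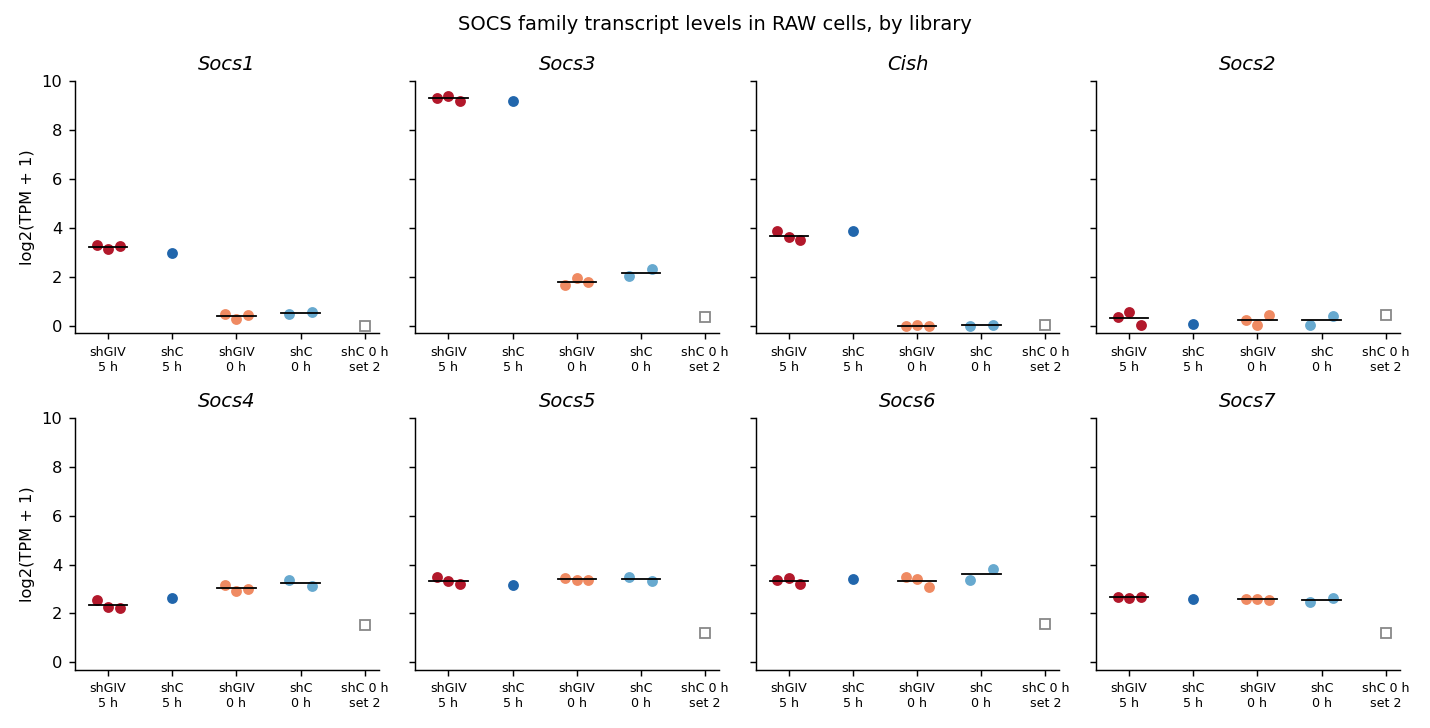
Level of each SOCS family gene, as log2(TPM + 1), in every library. Filled points are libraries and black lines are means of groups with more than 1 library; open squares are the shC library without LPS, replicate 2, that stands apart. Socs3, Socs1 and Cish lie far higher in the libraries at 5 h with LPS than at 0 h, and Socs3 reaches 9.39.

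Socs3 was by far the most abundant family member with LPS. It measured 636, 672 and 583 TPM in shGIV cells with LPS, 583 TPM in the shC library with LPS, 2.13, 2.83 and 2.47 TPM in shGIV cells without LPS, and 3.07 and 3.99 TPM in shC cells without LPS. All LPS libraries were above all others, and the shC library with LPS lay at the lowest shGIV value. The group means were 630 ± 44.8 TPM (SD, n = 3) in shGIV cells with LPS and 2.48 ± 0.350 TPM (SD, n = 3) in shGIV cells without LPS, a ratio of 254. The same ratio in shC cells was 165, from 583 TPM in the lone LPS library over 3.53 ± 0.649 TPM (SD, n = 2) without LPS. In the fit, the LPS change was 7.51 ± 0.11 (SE) log2 units in shGIV cells (adjusted p = 2.60e-09, limma) and 7.02 ± 0.16 (SE) log2 units in shC cells (adjusted p = 8.02e-08, limma). By mean TPM, Socs3 ranked at 206 of 21995 protein-coding genes in shGIV cells with LPS and at 242 in the shC library with LPS, against 9726 in shGIV cells and 9316 in shC cells without LPS.

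Socs1, whose product restrains interferon signalling, stayed far below Socs3. It measured 8.87, 7.73 and 8.43 TPM in shGIV cells with LPS, 6.81 TPM in the shC library with LPS, 0.374, 0.216 and 0.351 TPM in shGIV cells without LPS, and 0.411 and 0.466 TPM in shC cells without LPS. The LPS libraries did not overlap with the others. The change was 2.83 ± 0.11 (SE) log2 units in shGIV cells (adjusted p = 2.11e-07, limma) and 2.44 ± 0.16 (SE) log2 units in shC cells (adjusted p = 1.13e-05, limma). These are changes of log2(TPM + 1), which understate the ratio for genes below 1 TPM: the ratio of the mean TPM was 26.6 in shGIV cells and 15.5 in shC cells. With a pseudocount of 0.1 the changes were 4.37 and 3.68 log2 units. With LPS, Socs1 ranked at 6302 in shGIV cells and at 7091 in the shC library among the 21995 coding genes, against 11397 in shGIV cells and 11114 in shC cells without LPS.

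Cish, the STAT5-induced member, was nearly undetected without LPS. It measured 13.5, 11.3 and 10.4 TPM in shGIV cells with LPS and 13.6 TPM in the shC library with LPS. Without LPS it was listed at 0, 0.00936 and 0 TPM in shGIV cells and at 0 and 0.0223 TPM in shC cells, so no ratio is given. The change was 3.66 ± 0.12 (SE) log2 units in shGIV cells (adjusted p = 9.47e-08, limma) and 3.85 ± 0.18 (SE) log2 units in shC cells (adjusted p = 1.97e-06, limma). These sizes rest on the pseudocount of 1, and with 0.1 they were 6.84 and 6.95 log2 units. Cish overlaps the genes Gm17040 and Gm17041 on the opposite strand. Gm17041 was listed at up to 0.725 TPM in shGIV cells with LPS and at 1.73 TPM in the shC library with LPS, and Gm17040 did not exceed 0.0487 TPM. The library kit keeps strand, but whether the quantification used it is not given in the sources used here.

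With all 10 libraries in the fit, Socs3, Socs1 and Cish were called higher in both lines, with adjusted p between 5.09e-06 and 0.00272 (limma). In the library that stands apart, Socs3 measured 0.276 TPM, Cish 0.0262 TPM, and Socs1 was listed at 0.

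Socs2, the growth hormone feedback inhibitor, was low throughout. It measured 0.282, 0.461 and 0.0306 TPM in shGIV cells with LPS, 0.0581 TPM in the shC library with LPS, 0.161, 0.0334 and 0.335 TPM in shGIV cells without LPS and 0.0288 and 0.334 TPM in shC cells without LPS. The groups overlapped, and the values within a group spread as widely as those between groups. With no minimum on the level, its log2 change with LPS was 0.09 ± 0.17 (SE) in shGIV cells and -0.15 ± 0.26 (SE) in shC cells (adjusted p = 0.738 and 0.80, limma). In the library that stands apart it was at 0.371 TPM, within the range of the others.

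Socs4 was the member that fell with LPS on the TPM scale. It measured 4.89, 3.82 and 3.70 TPM in shGIV cells with LPS, 5.28 TPM in the shC library with LPS, 7.84, 6.66 and 6.97 TPM in shGIV cells without LPS, and 9.18 and 7.76 TPM in shC cells without LPS. Every LPS library was below every library without LPS. The change was -0.67 ± 0.12 (SE) log2 units in shGIV cells (adjusted p = 0.00099, limma) and -0.59 ± 0.18 (SE) log2 units in shC cells (adjusted p = 0.0214, limma). Most genes tested were also lower, and against the median of all genes Socs4 changed by -0.13 log2 units in shGIV cells and -0.19 log2 units in shC cells. With TMM scaling the changes were -0.16 and -0.20 log2 units, with quantile normalization 0.00 and -0.01, and Socs4 was called in neither line under these scalings nor with all 10 libraries. The call in shC cells was also lost without shC replicate 1 at 0 h, at -0.48 log2 units (adjusted p = 0.0776, limma), and without a minimum level (adjusted p = 0.0517, limma). By rank of mean TPM among coding genes, Socs4 stood at 7895 in shGIV cells with LPS, 7598 in the shC library with LPS, 8110 in shGIV cells without LPS and 7734 in shC cells without LPS.

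**Figure D2:**
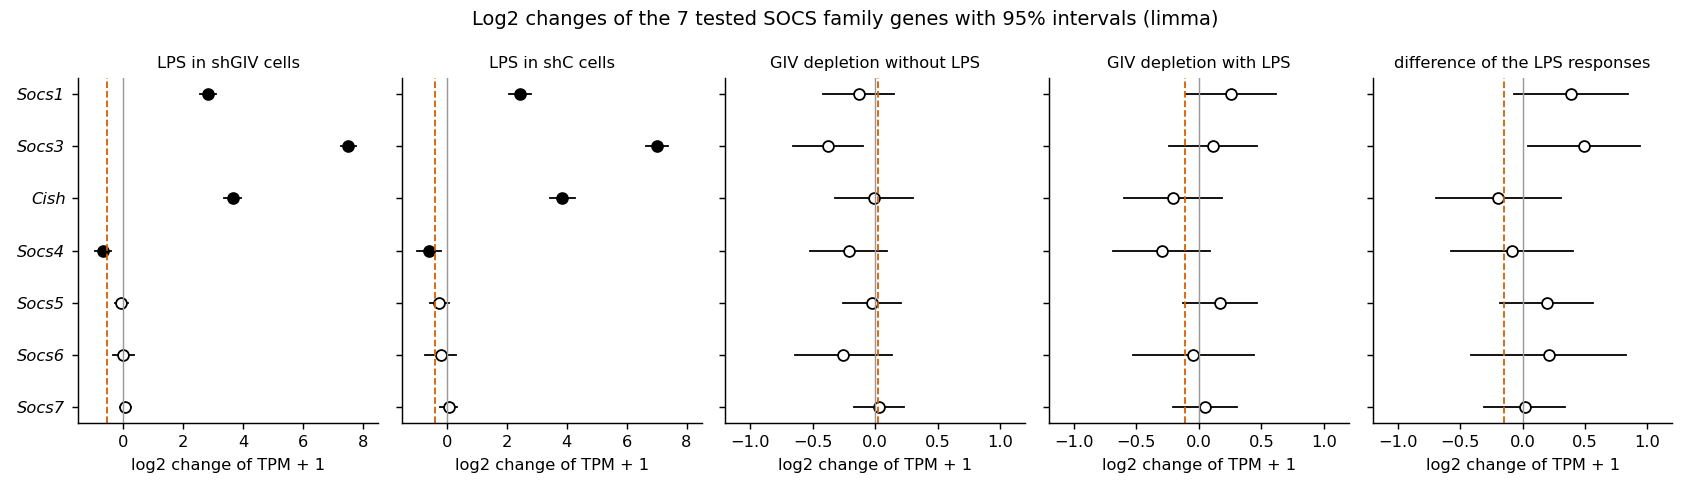
Log2 changes of TPM + 1 for the 7 tested genes with 95% confidence intervals, in 5 comparisons. Filled points passed the adjusted threshold, grey lines mark no change and dashed orange lines mark the median of all genes tested. The points of Socs3, Socs1 and Cish lie far right of both lines in the LPS panels, at up to 7.51; no point is filled in the panels of GIV depletion or of the difference between the LPS responses.

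Socs5, Socs6 and Socs7 were present at moderate levels in all 9 libraries. Socs5 measured 10.3, 8.92 and 8.29 TPM in shGIV cells with LPS, 8.00 TPM in the shC library with LPS, 9.88, 9.44 and 9.22 TPM in shGIV cells without LPS and 10.2 and 9.17 TPM in shC cells without LPS. Socs6 measured 9.39, 9.98 and 8.19 TPM in shGIV cells with LPS, 9.48 TPM in the shC library with LPS, 10.4, 9.64 and 7.57 TPM in shGIV cells without LPS and 9.45 and 13.0 TPM in shC cells without LPS. Socs7 measured 5.33, 5.19 and 5.36 TPM in shGIV cells with LPS, 5.09 TPM in the shC library with LPS, 5.07, 4.98 and 4.86 TPM in shGIV cells without LPS and 4.50 and 5.22 TPM in shC cells without LPS. Within a line, the libraries with LPS overlapped with those without it, apart from Socs7 in shGIV cells, where they were all slightly higher, and Socs5 in shC cells, where the LPS library was lower. In the library that stands apart Socs4, Socs5, Socs6 and Socs7 were at 1.91, 1.32, 2.001 and 1.32 TPM, below every other library.

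The 95% intervals bound what these libraries could show. The LPS change in shGIV cells was -0.05 log2 units (-0.26 to 0.15) for Socs5, 0.01 (-0.34 to 0.35) for Socs6 and 0.08 (-0.11 to 0.26) for Socs7. In shC cells it was -0.25 (-0.56 to 0.06) for Socs5, -0.20 (-0.72 to 0.31) for Socs6 and 0.06 (-0.21 to 0.33) for Socs7. Against the median of all genes tested the 3 genes lay higher by 0.49, 0.55 and 0.62 log2 units in shGIV cells and by 0.15, 0.20 and 0.46 log2 units in shC cells, in the order Socs5, Socs6, Socs7. With TMM scaling and with quantile normalization all 3 were called higher in shGIV cells, and Socs7 was also called higher in shC cells. Whether they passed the test thus depended on the scaling, while all 3 lay above the median of all genes under each of the 4 scalings.

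**Figure D3:**
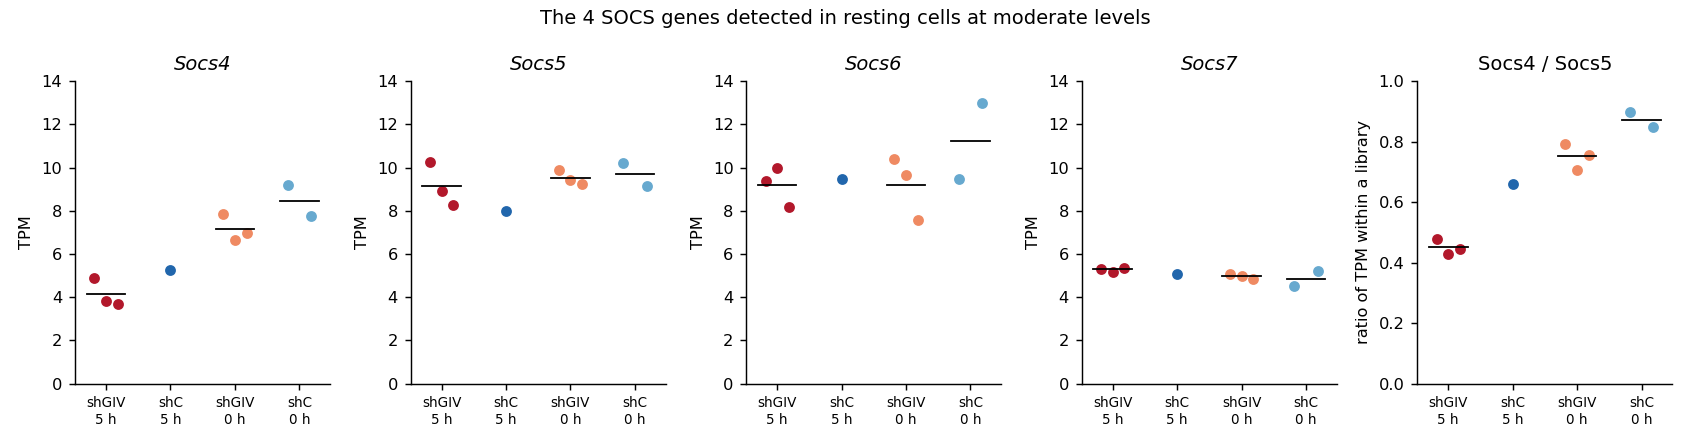
TPM of Socs4, Socs5, Socs6 and Socs7 and the ratio of Socs4 to Socs5 within each library, for the 9 libraries tested; points are libraries and lines are group means. Socs4 lies lower at 5 h with LPS than at 0 h. Within a line the other genes overlap, apart from Socs7 in shGIV cells, slightly higher with LPS, and Socs5 in shC cells, lower with LPS. The ratio lies between 0.428 and 0.660 with LPS and between 0.706 and 0.899 without.

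A ratio of genes within a library does not change when all values of that library are multiplied by the same factor. Quantile normalization is not such a scaling. The ratio of Socs4 to Socs5 was 0.477, 0.428 and 0.446 in shGIV cells with LPS, 0.660 in the shC library with LPS, 0.794, 0.706 and 0.757 in shGIV cells without LPS, and 0.899 and 0.847 in shC cells without LPS. The LPS libraries were all below the others, and in both conditions the shGIV libraries were below the shC ones; the library that stands apart was at 1.44. The ratio of Socs3 to Socs1 was 71.7, 86.9 and 69.2 in shGIV cells with LPS, 85.5 in the shC library with LPS, 5.71, 13.1 and 7.02 in shGIV cells without LPS, and 7.46 and 8.56 in shC cells without LPS. Here the lines overlapped in both conditions. These ratios are descriptions without a test.

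The composition of the family differed between the conditions. Socs3 took 92.4%, 93.4% and 92.9% of the summed TPM of the 8 genes in shGIV cells with LPS and 92.3% in the shC library with LPS, against 5.95%, 8.38% and 7.76% in shGIV cells without LPS and 8.33% and 9.99% in shC cells without LPS. The family sum was 688, 720 and 627 TPM in shGIV cells with LPS, 631 TPM in the shC library with LPS, 35.8, 33.8 and 31.8 TPM in shGIV cells without LPS and 36.9 and 39.9 TPM in shC cells without LPS. The lines overlapped with LPS, and without LPS both shC libraries were above the shGIV ones. Socs4 to Socs7 together made up 25.5 to 29.9 TPM of that sum with LPS and 28.6 to 35.1 TPM without LPS.

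**Figure D4:**
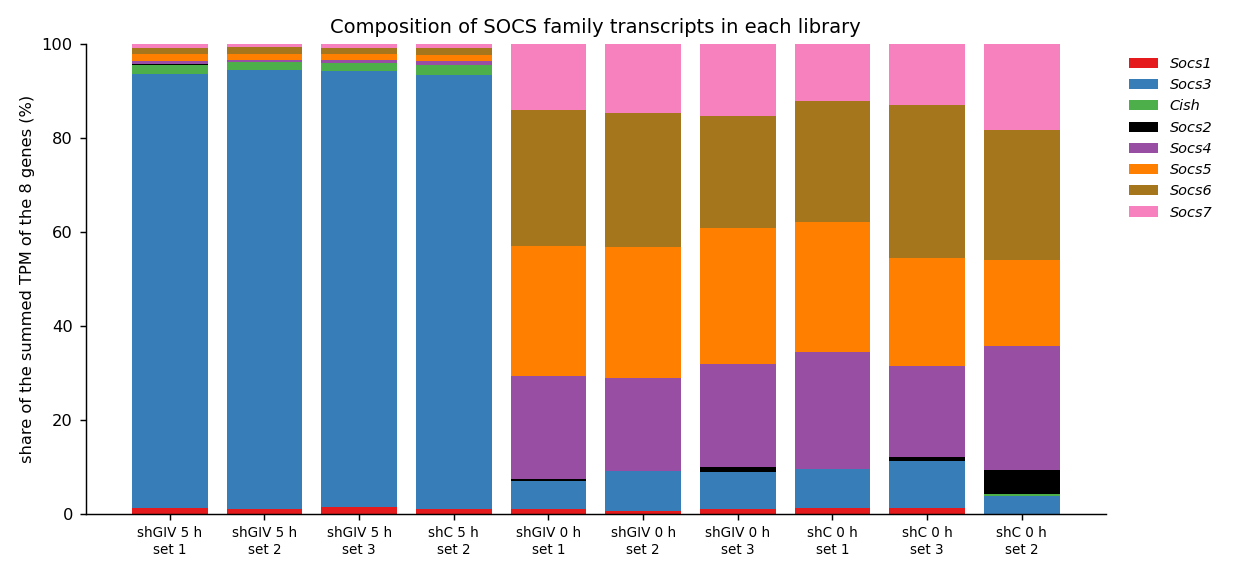
Share of the summed TPM of the 8 SOCS family genes taken by each gene, in each of the 10 libraries, with the library that stands apart last. Socs3 takes 92.3% to 93.4% with LPS and 5.95% to 9.99% in the 5 tested libraries without LPS, where Socs4, Socs5, Socs6 and Socs7 take most of the sum.

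Within each condition the order of levels was as follows. In shGIV cells with LPS the order of means was Socs3, Cish, Socs6, Socs5, Socs1, Socs7, Socs4, Socs2; the library ranges of Socs6, Socs5 and Socs1 overlapped, Cish reached no lower than 10.4 TPM and Socs6 no higher than 9.98 TPM. The shC library with LPS gave Socs3, Cish, Socs6, Socs5, Socs1, Socs4, Socs7, Socs2, without a spread. In shGIV cells without LPS the order was Socs5, Socs6, Socs4, Socs7, Socs3, Socs1, Socs2, Cish, and the ranges of Socs5, Socs6 and Socs4 were joined by overlaps with Socs6. In shC cells without LPS it was Socs6, Socs5, Socs4, Socs7, Socs3, Socs1, Socs2, Cish, where the ranges of Socs6, Socs5 and Socs4 again ran into each other. In both lines without LPS, Socs2 reached no higher than 0.335 TPM, and its range overlapped with that of Socs1 in shGIV cells.

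The study's design also asks whether cells depleted of GIV differ from control cells, with and without LPS. None of the 7 tested members was called in either comparison (limma; 1, Socs3, had an unadjusted p under 0.05 without LPS, and 0 did with LPS). Among all genes tested, 1.22% were called without LPS, 0.489% higher and 0.729% lower, and 5.27% with LPS, 0.89% higher and 4.38% lower. An unadjusted p under 0.05 (limma) was found for 12.2% of all genes tested without LPS and for 22.1% with LPS. With all 10 libraries and under every scaling the count of members called also stayed at 0.

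Without LPS, Socs3 was the member whose lines differed most against their spread. The shGIV libraries, at 2.13 to 2.83 TPM, were all below the shC libraries, at 3.07 and 3.99 TPM. The difference was -0.38 ± 0.12 (SE) log2 units with a 95% interval of -0.66 to -0.10, unadjusted p = 0.0141 and adjusted p = 0.254 (limma), which does not pass. With all 10 libraries it was 0.23 log2 units; the shC library that stands apart had the lowest Socs3 value of all. Socs1 was likewise lower in every shGIV library, at 0.216 to 0.374 TPM against 0.411 and 0.466 TPM, with a difference of -0.13 ± 0.12 (SE) log2 units and adjusted p = 0.734 (limma). Differences for the other tested members without LPS were between -0.25 log2 units (Socs6) and 0.03 (Socs7), and the lines overlapped for each of them.

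With LPS, each comparison sets 3 shGIV libraries against 1 shC library, whose spread is taken from the other groups. Socs3 differed by 0.11 ± 0.15 (SE) log2 units (95% interval -0.24 to 0.46, adjusted p = 0.724, limma) and Socs1 by 0.26 ± 0.15 (SE) log2 units (-0.10 to 0.61, adjusted p = 0.378, limma). Cish differed by -0.20 log2 units (-0.60 to 0.19) and Socs4 by -0.30 log2 units (-0.68 to 0.09), with adjusted p = 0.533 and 0.343 (limma). The differences for Socs5, Socs6 and Socs7 were 0.17 (-0.12 to 0.46), -0.04 (-0.53 to 0.44) and 0.05 (-0.21 to 0.30) log2 units.

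The difference between the LPS responses was tested in the same fit, as the change in shGIV cells minus that in shC cells. None of the 7 members was called, against 0.226% of all genes tested, 0.0948% higher and 0.131% lower. An unadjusted p under 0.05 (limma) was found for 17.3% of all genes tested and for 1 member, Socs3. Its difference was 0.49 ± 0.19 (SE) log2 units with a 95% interval of 0.04 to 0.94, unadjusted p = 0.0362 and adjusted p = 0.253 (limma). It shares the libraries without LPS with the comparison above, where Socs3 was lower in shGIV cells, and with all 10 libraries it was -0.12 log2 units. Socs1 differed by 0.39 log2 units (-0.07 to 0.85, adjusted p = 0.353, limma), and the other members by -0.19 (Cish) to 0.21 (Socs6).

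The members differ in the number of AU-rich pentamers they carry. The pentamer ATTTA, the core of AU-rich elements that shorten the life of cytokine mRNAs, occurred 4 times in the 1474 nt of the annotated 3′ UTR of Socs3, 3 times in 1087 nt of Cish, 2 times in 1163 nt of Socs2 and 0 times in 1993 nt of Socs1. It occurred 17 times in 5182 nt of Socs4, 10 times in 4019 nt of Socs6, 5 times in 5184 nt of Socs7 and 4 times in 2595 nt of Socs5. Over 21703 coding genes the median was 1 occurrence in a median length of 928 nt. These are counts of letters, and no transcript's half-life was measured here.

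For each tested member the 3 coding genes with the most similar pattern over the 9 libraries were found by the root mean square difference of log2(TPM + 1), each gene centred on its own mean. Socs1 was closest to Heatr9 at 0.103, to Trim21, an antibody receptor induced by interferon, at 0.109 and to Nmi, an interferon-induced partner of STAT proteins, at 0.114. Socs3 was closest to the interferon-induced genes Gbp3 at 0.140, Gbp2 at 0.180 and Ifit1 at 0.195. Cish was closest to Pim1, a kinase gene known as a STAT target, at 0.10, to Parp14 at 0.112 and to Ikbke, a kinase of the interferon pathway, at 0.125. The members' own root mean square deviations were 1.35 for Socs1, 3.65 for Socs3 and 1.84 for Cish. Genes close to these 3 had LPS changes near the member's own. Gbp3, for example, changed with LPS by 7.46 log2 units in shGIV cells and 6.95 log2 units in shC cells. Shared regulation was not tested. Socs4 was closest to D3Ertd254e at 0.0394, Uhmk1 at 0.0588 and Clcn3 at 0.0685. Socs5, Socs6 and Socs7 deviated by only 0.106, 0.185 and 0.0609 themselves, and their closest genes were Zfp868 at 0.0448, Hk1 at 0.101 and Psmd14 at 0.0377.

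The rest of the JAK and STAT pathway was described from lists of genes by role. Of 17 cytokine ligand genes 12 were tested, and 11 were higher and 0 lower with LPS in each line, also under all 4 scalings. The median change was 4.60 log2 units in shGIV cells and 4.32 log2 units in shC cells. Of all genes tested, 15.8% were called higher in shGIV cells and 14.8% in shC cells. Across the alternatives other than leaving out a library, 10 to 12 ligands were called in shGIV cells and 3 to 11 in shC cells. Csf3, which encodes granulocyte colony stimulating factor, averaged 1386 TPM in shGIV cells with LPS, 2015 TPM in the shC library with LPS, 0.160 TPM in shGIV cells without LPS and 0.0236 TPM in shC cells without LPS. Il6, whose receptor chain is bound by SOCS3, averaged 269 TPM in shGIV cells with LPS, 189 TPM in the shC library with LPS, 0.0178 TPM in shGIV cells and 0.0379 TPM in shC cells without LPS. Il27 averaged 924 TPM in shGIV cells with LPS, 771 TPM in the shC library with LPS, 1.00 TPM in shGIV cells and 0.895 TPM in shC cells without LPS. These ligands passed the minimum level through the LPS libraries, so their count is a description.

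Interferon beta and interleukin 10 were the ligands called between the lines. Ifnb1 measured 27.7, 26.1 and 25.5 TPM in shGIV cells with LPS and 14.3 TPM in the shC library with LPS. The difference was 0.84 ± 0.13 (SE) log2 units (adjusted p = 0.0162, limma), and without shGIV replicate 3 with LPS the adjusted p was 0.0541, and with a pseudocount of 0.1 it was 0.276. Il10 measured 0.154, 0.218 and 0.265 TPM in shGIV cells without LPS and 0.807 and 0.775 TPM in shC cells without LPS, a difference of -0.56 ± 0.09 (SE) log2 units (adjusted p = 0.0376, limma). That call was lost when either shC library without LPS, any shGIV library without LPS or shGIV replicate 3 with LPS was left out (adjusted p up to 0.148, limma), or when no minimum level was set (adjusted p = 0.0717, limma). With LPS, Il10 measured 167 to 201 TPM in shGIV cells and 172 TPM in the shC library. Il10 thus met the minimum level through the LPS libraries alone, and its difference without LPS lies between values below that level.

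Of 27 receptor chain genes 17 were tested. With LPS, 10 were higher and 5 lower in shGIV cells, and 9 higher and 5 lower in shC cells, with median changes of 0.54 and 0.82 log2 units. Of all genes tested, 15.8% were called higher and 59.7% lower in shGIV cells, and 14.8% and 44.1% in shC cells. Across the 4 scalings 10 to 13 receptor genes were higher and 3 to 5 lower in shGIV cells. In shC cells 9 to 12 were higher and 3 to 5 lower. Il4ra, Il15ra and Il13ra1, chains for interleukins 4, 15 and 13, rose by 3.54, 3.04 and 1.91 log2 units in shGIV cells and by 1.94, 3.10 and 1.55 log2 units in shC cells. Without LPS, only shC replicate 3, at 1.67 TPM, reached the minimum level for Il4ra among the tested libraries. Il4ra thus passed the minimum through the LPS libraries, so its LPS call is a description. Il7r, the interleukin 7 receptor chain, was lower in shGIV cells both with LPS, by -1.04 ± 0.14 (SE) log2 units (adjusted p = 0.0105, limma), and without LPS, by -0.95 ± 0.11 (SE) log2 units (adjusted p = 0.0103, limma). It measured 13.9 to 16.6 TPM in shGIV cells with LPS, 32.4 TPM in the shC library with LPS, 7.86 to 8.32 TPM in shGIV cells without LPS, and 14.6 and 18.7 TPM in shC cells without LPS. Leaving out shC replicate 3 without LPS gave -0.79 log2 units without LPS (adjusted p = 0.0507, limma). Il10rb, a chain of the interleukin 10 receptor, was lower in shGIV cells with LPS by -0.39 log2 units (adjusted p = 0.0402, limma), a call made under 1 of the 4 scalings and lost when any shGIV library was left out (adjusted p up to 0.101, limma), and its LPS changes turned sign with TMM scaling.

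Among the 4 JAK kinases, 3 were higher with LPS in shGIV cells and 2 in shC cells, with median changes of 0.55 and 0.42 log2 units. Of all genes tested, 15.8% were called higher in shGIV cells and 14.8% in shC cells. Across the 4 scalings 3 to 4 JAK genes were higher in shGIV cells and 2 to 4 in shC cells. Jak2 averaged 68.3 TPM in shGIV cells with LPS, 68.3 TPM in the shC library with LPS, 6.20 TPM in shGIV cells without LPS and 7.05 TPM in shC cells without LPS. Tyk2 rose by 0.76 log2 units in shGIV cells and 0.62 log2 units in shC cells, and Jak3 rose by 0.34 log2 units in shGIV cells (adjusted p = 0.0231, limma) and had 0.11 log2 units in shC cells (adjusted p = 0.607, limma). The Jak3 call was lost without shGIV replicate 1 or 3 at 0 h or replicate 2 with LPS (adjusted p up to 0.0802, limma), and without a minimum level (adjusted p = 0.0537, limma). Of the 6 STAT genes tested of 7, 4 were higher and 2 lower in shGIV cells, and 4 higher and 1 lower in shC cells, with median changes of 2.31 and 1.91 log2 units. Among all genes tested, 59.7% were called lower in shGIV cells and 44.1% in shC cells. Across the 4 scalings 4 to 5 STAT genes were higher in shGIV cells and 4 in shC cells, and 0 to 2 were lower in each line. Stat2 and Stat3 rose by 3.05 and 2.37 log2 units in shGIV cells and by 3.19 and 2.33 log2 units in shC cells.

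Stat5a, which encodes an activator of Cish, was the STAT gene called between the lines. It measured 62.8, 63.8 and 58.0 TPM in shGIV cells with LPS, 33.5 TPM in the shC library with LPS, 11.99, 12.1 and 12.5 TPM in shGIV cells without LPS and 9.88 and 12.8 TPM in shC cells without LPS. The difference with LPS was 0.86 ± 0.13 (SE) log2 units (adjusted p = 0.0137, limma) and held under all 4 scalings, with 0.86 to 1.02 log2 units. Cish, at 10.4 to 13.5 TPM in those shGIV libraries and 13.6 TPM in the shC library, did not differ past the test.

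Of the 12 other brakes on the pathway, all tested, 3 were higher and 8 lower with LPS in shGIV cells, and 2 higher and 4 lower in shC cells, with median changes of -0.35 and 0.08 log2 units. Of all genes tested, 59.7% were called lower in shGIV cells and 44.1% in shC cells, and the medians were -0.54 and -0.40 log2 units, so the share of brakes called lower is not a result about them. The shares of all genes called higher were 15.8% in shGIV cells and 14.8% in shC cells. Across the 4 scalings the split in shGIV cells ran from 3 to 6 higher and from 2 to 8 lower. In shC cells it ran from 2 to 7 higher and from 2 to 4 lower. Usp18, a protease that blocks the interferon receptor, averaged 937 TPM in shGIV cells with LPS, 951 TPM in the shC library with LPS, 50.2 TPM in shGIV cells without LPS and 48.99 TPM in shC cells without LPS. It was thus above Socs3 in mean TPM in all 4 groups. Pias3, an inhibitor of STAT3, and Ptpn6, the phosphatase SHP-1, fell, with changes of -1.53 and -0.93 log2 units in shGIV cells and of -1.70 and -0.83 log2 units in shC cells. Ptpn11, the phosphatase SHP-2, was lower in shGIV cells with LPS by -0.50 log2 units (adjusted p = 0.0288, limma), called under 3 of 4 scalings and lost without any of the shGIV libraries at 0 h or shGIV replicate 2 or 3 with LPS (adjusted p up to 0.0744, limma).

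The SOCS box works with elongins, cullin 5 and their partners. All 9 such genes with a row were tested, from 11 listed symbols of which 2 are older names; 2 were higher and 5 lower with LPS in shGIV cells, and 2 higher and 0 lower in shC cells, with median changes of -0.35 and -0.13 log2 units. In shGIV cells the share called lower was near the 59.7% of all genes, and both medians were above those of all genes. Of all genes tested, 15.8% were called higher in shGIV cells. In shC cells 14.8% were called higher and 44.1% lower. Across the 4 scalings the split in shGIV cells ran from 2 to 8 higher and from 0 to 5 lower. In shC cells it ran from 2 to 4 higher and from 0 to 3 lower. Ube2f, the conjugating enzyme that modifies cullin 5, averaged 122 TPM in shGIV cells with LPS, 112 TPM in the shC library with LPS, 81.3 TPM in shGIV cells without LPS and 75.5 TPM in shC cells without LPS, and was higher under all 4 scalings. Cul5 changed by -0.39 log2 units in shGIV cells (adjusted p = 0.0126, limma) and -0.37 log2 units in shC cells (adjusted p = 0.0936, limma), and Rnf7, the RING partner of cullin 5, by -0.47 log2 units in shGIV cells (adjusted p = 0.000121, limma) and -0.14 log2 units in shC cells (adjusted p = 0.185, limma); both turned sign with TMM scaling in both lines, and Cul5 was called under 1 of the 4 scalings.

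The SPRY group shares the SOCS box but has another docking domain, and 3 of its 4 genes were tested. With LPS, 1 was higher and 2 lower in shGIV cells, and 1 higher and 1 lower in shC cells, also under all 4 scalings. The median changes were -1.38 and -0.46 log2 units. Of all genes tested, 15.8% were called higher and 59.7% lower in shGIV cells, and 14.8% and 44.1% in shC cells. Spsb1, the gene that was higher, met the minimum level through the LPS libraries alone, so its LPS call is a description. Spsb1, an adaptor for the inducible nitric oxide synthase, measured 3.34, 3.31 and 3.58 TPM in shGIV cells with LPS, 1.21 TPM in the shC library with LPS, 0.160 to 0.330 TPM in shGIV cells without LPS, and 0.292 and 0.392 TPM in shC cells without LPS. Its difference with LPS between the lines was 1.00 ± 0.19 (SE) log2 units (adjusted p = 0.0283, limma), called under all 4 scalings but lost without any of the shGIV libraries with LPS or shGIV replicate 3 at 0 h (adjusted p up to 0.0831, limma) and with a pseudocount of 0.1 (adjusted p = 0.104, limma). Spsb2 fell in both lines, with changes of -1.89 log2 units in shGIV cells and -2.01 log2 units in shC cells. Spsb3 changed by -1.38 log2 units in shGIV cells (adjusted p = 0.00037, limma) and by -0.46 log2 units in shC cells (adjusted p = 0.233, limma).

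With all 10 libraries in the fit, none of the differences between the lines named for Ifnb1, Il10, Il7r, Il10rb, Stat5a, Ptpn11 and Spsb1 was called (adjusted p at least 0.547, limma). With only the libraries of the groups compared in the fit, those of Ifnb1, Il10rb, Stat5a, Ptpn11 and Spsb1 and both of Il7r were not called (adjusted p 0.0508 to 0.125, limma). Il10 was below the minimum level in every library without LPS, so its difference was not tested with those groups alone. Some LPS calls were also lost with all 10 libraries. In shGIV cells these were Il13ra1, Il7r, Il10rb, Tyk2, Jak3, Ptpn6, Ptpn11, Ube2f, Cul5, Rnf7, Spsb2 and Spsb3 (adjusted p 0.0869 to 0.816, limma). In shC cells they were Il13ra1, Il7r, Il10rb, Tyk2, Stat3, Stat5a, Pias3, Ptpn6, Ube2f, Spsb1 and Spsb2.

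**Figure D5:**
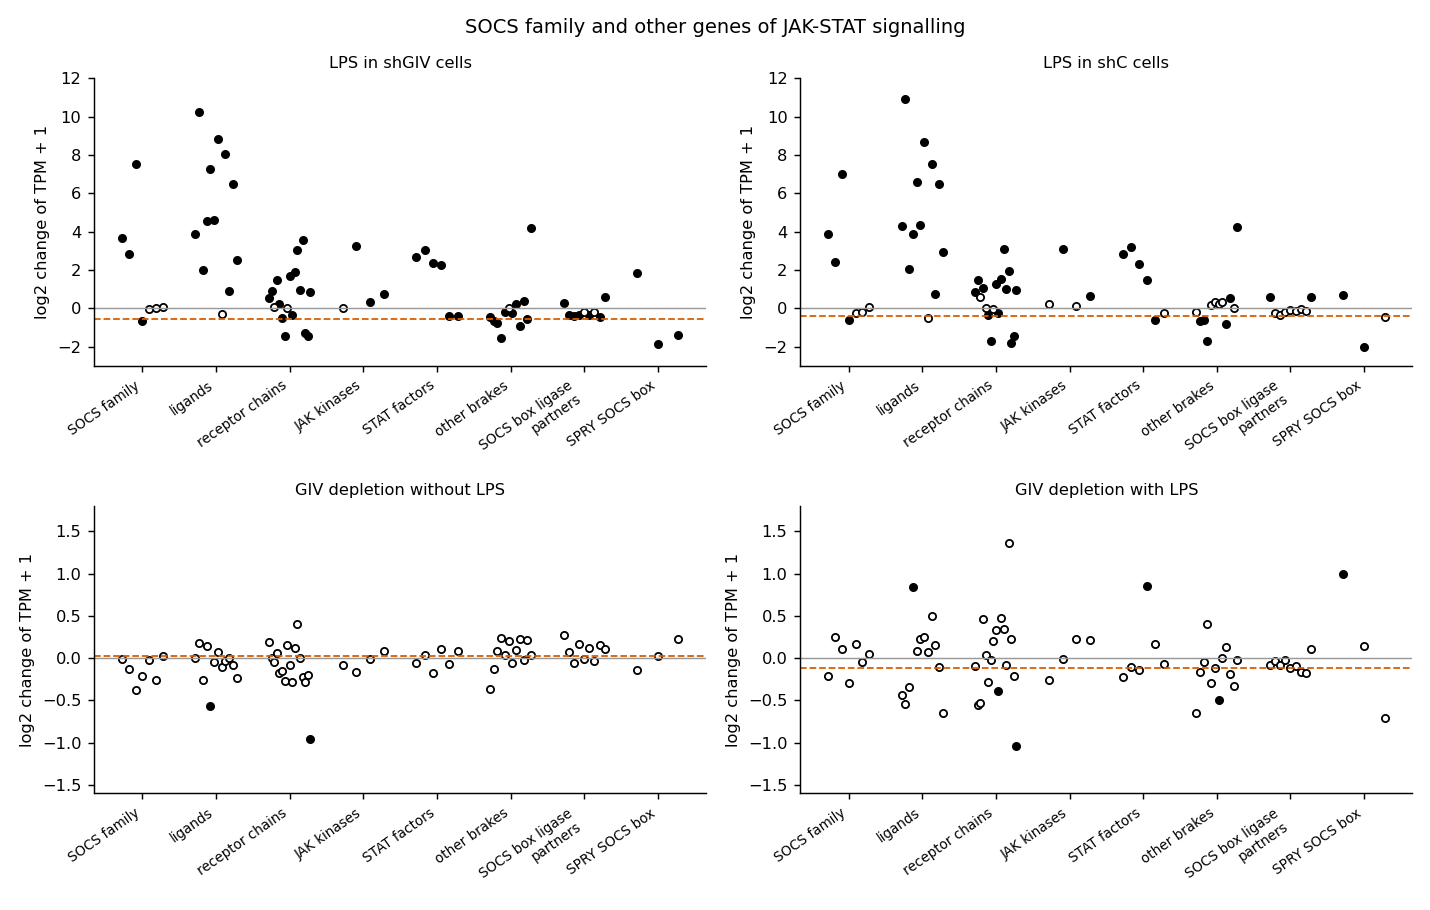
Log2 changes of TPM + 1 for every tested gene of the SOCS family and of 7 lists of related genes, in 4 comparisons; each point is a gene, filled where the adjusted p passed the threshold, and dashed orange lines mark the median of all genes tested. With LPS the 11 ligands and 4 STAT genes called higher lie above the dashed line in both lines of cells, and between the lines of cells few points are filled, none of them a SOCS family gene.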

How the data were processed

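RNA from RAW cells was sequenced as stranded total RNA, per the labels' protocols. The authors deposited log2(TPM + 1) values per gene, and the unit was read from the values, whose TPM sum to 1000000 in every library. The submitters' processing notes name kallisto 0.45.0 and the build GRCm38; the annotation release and the use of strand are not given in the sources used here. The TPM values hold no depth. Values were taken by column title for 10 of 11 labelled samples.

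limma 3.58.1 in R 4.3.3 fitted 4 group means with a mean-variance trend to 9 libraries (5 residual degrees of freedom) and was tested on simulated data. shC replicate 2 at 0 h was left out of the fit. Alternatives were other scalings (TMM, quantile, rescaling without the 100 most abundant genes), filters, a pseudocount of 0.1, each comparison's groups alone, all 10 libraries, a replicate block and leaving out each library. The genes named are the 8 members, Ccdc88a, the 3 genes most alike each member and, from 7 lists, the genes called with the largest changes, of which 1 is not reported here. The members and lists were chosen with earlier results of these data known. Gene models came from GENCODE M21 and promoter sequences from RefSeq (GRCm38.p6).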

Additional observations from a re-analysis of the deposited data

How the results depend on the processing

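Socs1, Socs3 and Cish kept their direction and their call in both LPS comparisons under every alternative that tested them. As in the main analysis, the LPS calls of Socs1 and Cish under a minimum level are descriptions. Alone with the shC groups, 1 member was called, against 4 in the main analysis, since the minimum level then left out Socs1 and Cish, and Socs4 had adjusted p = 0.0558 (limma). No member was called between the lines, or for the difference of the LPS responses, under any alternative run.

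Counts of genes called moved more. With all 10 libraries they were 2236 (LPS in shGIV cells, against 10349), 481 (LPS in shC cells, against 8075) and 0 for both GIV comparisons and the difference (against 167, 722 and 31). For GIV depletion without LPS they were 309 with quantile normalization, 277 with rescaling and 47 with only those groups; with LPS, 69 with only those groups. For the difference they were 360 without a filter, 73 with a stricter one, 76 with TMM scaling and 64 with rescaling. Leaving out 1 library gave 58 to 167 for GIV depletion without LPS, 325 to 953 when LPS was present, 0 to 21 for the difference, 9844 to 10407 for LPS in shGIV cells and 7333 to 8022 in shC cells. The causes were not tested.

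Directions turned for members that did not pass the main test, except Socs4. For LPS in shGIV cells, Socs4 was 0.00371 log2 units with quantile normalization, and Socs5 was 0.50 (TMM), 0.60 (quantile) and 0.049 (rescaling). For LPS in shC cells, Socs5 was 0.49 with all 10 libraries, 0.16 (TMM) and 0.27 (quantile), and Socs6 0.47, 0.21 and 0.30. For GIV depletion without LPS, all 10 libraries gave 0.042 (Socs1), 0.23 (Socs3), 0.35 (Socs4), 0.71 (Socs5) and 0.42 (Socs6), and rescaling gave -9.97e-05 for Socs7. With LPS, Socs6 was 0.11 (TMM), 0.10 (quantile) and 0.063 (rescaling). For the difference, all 10 libraries gave -0.12 (Socs3), -0.54 (Socs5), -0.46 (Socs6) and -0.43 (Socs7), and Socs4 was 0.038 (TMM), 0.017 (quantile) and 0.038 (rescaling).

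Leaving out 1 library, the ranges that crossed 0 were, for LPS in shGIV cells, -0.13 to 0.0084 (Socs5) and -0.11 to 0.089 (Socs6); for LPS in shC cells, -0.41 to 0.0045 (Socs6) and -0.029 to 0.15 (Socs7); for GIV depletion without LPS, -0.027 to 0.0045 (Cish), -0.094 to 0.048 (Socs5) and -0.059 to 0.12 (Socs7); with LPS, -0.10 to 0.027 (Socs6); and for the difference, -0.19 to 0.023 (Socs4) and -0.073 to 0.10 (Socs7).

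Same-numbered libraries deviated together only weakly (correlations of -0.0013 to 0.0972), so the numbers were not taken to pair them. With the number as a replicate block, 0 genes were called for the difference, 83 for GIV depletion with LPS and 58 for GIV depletion without it, no SOCS member's call changed, and the differences between the lines of Ifnb1, Il10, Il7r, Il10rb, Stat5a, Ptpn11 and Spsb1 were no longer called (adjusted p 0.0713 to 0.153, limma); Socs6 was 0.047 with LPS and Socs7 -0.000366 for the difference. Each shGIV library without LPS correlated best with its own number among those with LPS.

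The shC response rests on 1 LPS library, which limits every comparison that uses it. The depth behind low values, such as those of Socs2 and Cish without LPS, is unknown, and fewer cells of a state and less RNA per cell cannot be told apart in bulk RNA.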
